A study of Mus musculus with 24 samples.

Results

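Chromatin immunoprecipitation sequencing (ChIP-seq) of elongating RNA polymerase II (Pol II) is described here, in 4 of the 24 libraries of the series. They are all libraries made with antibody 3E10, which recognises Pol II phosphorylated at serine 2 of the repeats of its C-terminal domain (Ser2P). Mouse bone marrow-derived macrophages from FVB/Hsd mice, harvested on differentiation day 7, carried a retroviral short hairpin against Wdr82 (hairpin sh1137, here shWdr82) or a scrambled hairpin, and both kinds of cell had been selected with puromycin. Each was left untreated or stimulated at 10 ng/ml with LPS, lipopolysaccharide of the bacterial outer membrane, to which macrophages respond. The titles of these libraries give 45 min of LPS, whereas the treatment protocol mentions 4 h only. The untreated lists held 16744 Ser2P peaks for shWdr82 and 15670 for scrambled cells. The LPS lists held 14870 and 14420. Of the other antibodies, total Pol II and H3K36me3 were used to class the Ser2P peaks. The histone marks H3K4me3, H3K27ac and H3K4me1 were used to describe regions, and H3K4me3 also to orient H3K36me3 domains. Titles give 45 min of LPS for total Pol II, H3K36me3 and H3K4me1, with the scrambled hairpin as control. For H3K4me3 and H3K27ac they give 4 h of LPS, and the control was an empty vector.

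Serine 2 of the C-terminal repeats is phosphorylated as Pol II moves from initiation into elongation, and Ser2P is known to be highest over the bodies and past the 3' ends of genes. H3K36me3, trimethylation of histone H3 at lysine 36, is laid down behind elongating Pol II and marks the bodies of transcribed units, while H3K4me3 marks promoters. WDR82 is an adaptor subunit of the SET1 H3K4 methyltransferase complexes, which it tethers to Pol II phosphorylated at serine 5, and of a phosphatase complex with PNUTS that acts on Pol II in transcription termination. The series title speaks of early termination that restrains transcription of cis-regulatory elements, and the comparison asks whether elongating Pol II is found at other places, or over longer stretches, in cells with the Wdr82 hairpin.

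Each group had 1 library, made with 1 hairpin, so differences between vectors have no replicate check and no test was run. Neither the level of Wdr82 itself nor the read depth or input is given in the sources used here. A peak that is absent from a list lay below the threshold of the caller and is not shown to be free of signal. Intervals are 95% intervals for counting error alone, and standard deviations (SD) over the 20 chromosomes describe how even a value was across the genome. Positions are on mm9. No annotation of that build was at hand, so no gene was assigned to a peak and macrophage marker genes were not checked.

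The shWdr82 LPS list stood apart in extent. Its Ser2P peaks had a median width of 2496 bp and a median score of 150 (the authors' score for the strength of a peak, from 50 to a ceiling near 3100), against 1812 bp and 112 in the scrambled LPS list. The untreated lists were ordered the other way, at 1550 bp and 96.3 for shWdr82 and 1921 bp and 114 for scrambled cells. Peaks at least 20000 bp wide numbered 25 in each untreated list, 245 in the shWdr82 LPS list and 106 in the scrambled LPS list. The part that depth or enrichment has in these differences was not tested, and some results are also given below with lists brought to equal covered length. Among those not recomputed in that way were the overlap by score, the counts of very wide peaks and the look-up in the other treatment. The same holds for the flanks of single domains, the distances to H3K36me3 and the overlap with other marks. It also holds for the total Pol II of the other vector and for the regions paired in both treatments.

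A larger share of Ser2P peaks lay outside H3K36me3 in shWdr82 cells, in both treatments. Inside means an overlap of at least 1 bp with an H3K36me3 peak of the scrambled untreated library. Without LPS, the share outside was 50.7% (50.0 to 51.5) for shWdr82 and 44.9% (44.1 to 45.7) for scrambled cells, a difference of 5.86 percentage points (4.77 to 6.95). After LPS it was 53.0% (52.2 to 53.8) and 46.0% (45.1 to 46.8), a difference of 7.03 points (5.89 to 8.17). By length, 29.6% of the width of the shWdr82 list and 24.5% of that of the scrambled list lay in outside peaks in untreated cells, and 37.2% and 25.6% did after LPS. The LPS difference in the share of peaks turned to -7.93 points with only the strongest peaks of the shWdr82 LPS list kept, enough to cover as much as the scrambled list, and was 9.09 points when all its peaks were narrowed about their centres instead.

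The classes drawn with total Pol II of the same vector and treatment showed where these peaks lay. After LPS, 2592 shWdr82 peaks and 1751 scrambled peaks lay outside H3K36me3 on total Pol II, making up 19.8% and 12.4% of the length of their lists. The same class held 2418 and 2188 untreated peaks, or 15.3% and 13.6% of the length. Inside H3K36me3 on total Pol II, the class that covered the most DNA in each list, the shWdr82 list held fewer peaks in both treatments: 6474 against 7262 in untreated cells and 4743 against 5337 after LPS. Outside H3K36me3 and without total Pol II, there were 6076 shWdr82 and 4843 scrambled peaks in untreated cells, and 5287 and 4876 after LPS. The untreated peaks of that last class were weak and narrow, with median scores of 61.3 and 62.2 and median widths of 692 bp and 785 bp.

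**Figure D1:**
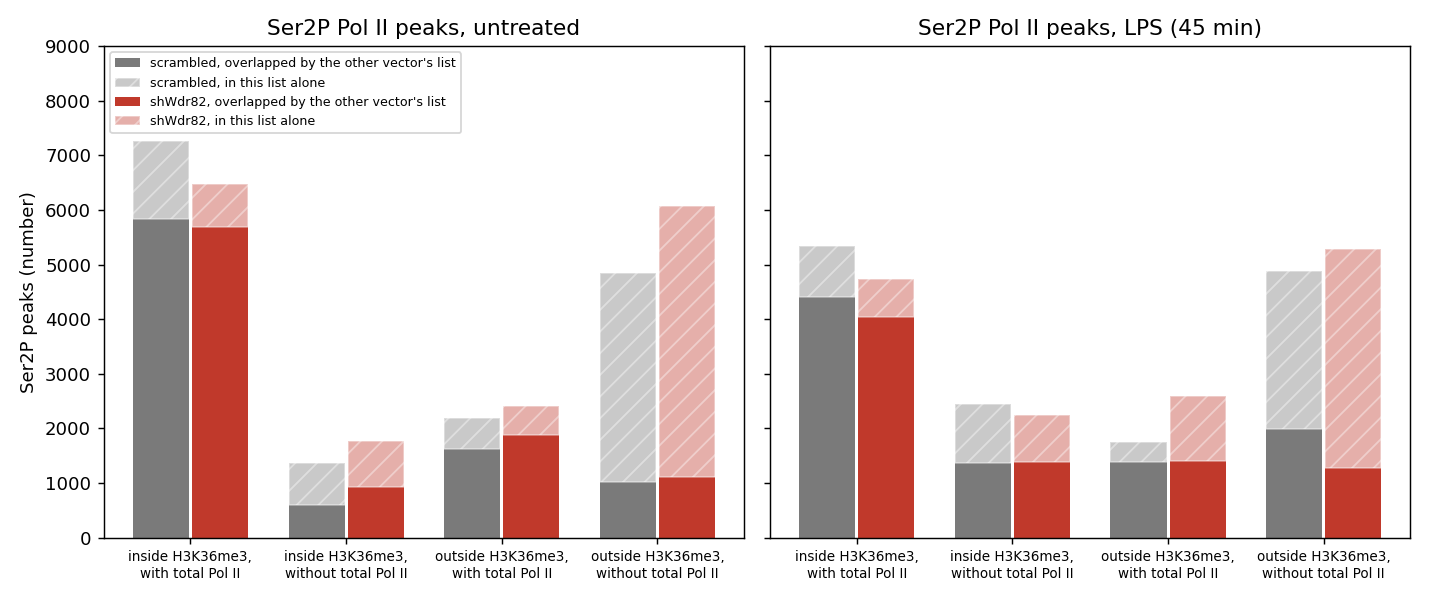
Number of Ser2P Pol II peaks (y axis) in 4 classes (x axis) by overlap with H3K36me3 of the scrambled untreated library and with total Pol II of the same vector and treatment, for untreated (left) and LPS (right) libraries. Solid bars are peaks overlapped by the other vector's list and hatched bars are peaks in 1 list alone; after LPS, 1187 shWdr82 peaks and 367 scrambled peaks outside H3K36me3 on total Pol II were in 1 list alone.

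Overlap with total Pol II, taken over the whole list, was lower in shWdr82 than in scrambled untreated cells and nearly equal after LPS. In untreated cells 53.1% of shWdr82 and 60.3% of scrambled Ser2P peaks lay on total Pol II, a difference of -7.20 points (-8.28 to -6.12). The untreated total Pol II lists themselves differed in length, with 28497 peaks in shWdr82 and 32385 in scrambled cells, and with equal numbers of total Pol II peaks the difference was -5.02 points. For the LPS libraries it was 49.3% and 49.2%, which differ by 0.174 points (-0.972 to 1.32). That LPS difference took either sign under other treatments of the lists, from -7.04 points with peaks scoring at least 100 to 23.6 points with the shWdr82 list reduced to the covered length of the other.

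Presence was compared next, as overlap of at least 1 bp between the lists of a treatment. The shWdr82 list overlapped 57.8% (57.0 to 58.6) of scrambled peaks in untreated cells and 63.4% (62.6 to 64.2) after LPS. Of 21714 merged untreated regions, 32.8% were held by shWdr82 alone and 30.5% by scrambled cells alone. Of 19241 merged regions after LPS, the shares were 35.2% and 27.4%. Among the libraries of total Pol II these shares were 14.5% and 23.3% in untreated cells and 22.5% and 19.6% after LPS, each lower than its Ser2P counterpart.

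Peaks held by 1 vector alone leaned to shWdr82 outside H3K36me3 and to scrambled cells inside it. In untreated cells 5500 outside peaks were in the shWdr82 list alone and 4397 in the scrambled list alone, against 1627 and 2218 inside. After LPS the numbers were 5203 and 3260 outside, and 1565 and 2013 inside. The shWdr82 share of such peaks was thus 13.3 points (11.4 to 15.1) higher outside than inside in untreated cells and 17.7 points (15.8 to 19.7) higher after LPS. This difference was above 0 under every alternative tried, from 9.30 to 18.9 points in untreated cells and from 12.2 to 34.5 points after LPS. At 12.2 points, with the shWdr82 LPS list reduced to the covered length of the other, only the difference held. There 6650 shWdr82 peaks were set against 14420 scrambled peaks, of which 46.3% were overlapped. Peaks in 1 list alone then leaned to scrambled cells outside H3K36me3 as well as inside it. Of the 4 untreated classes, the one inside H3K36me3 on total Pol II leaned most to scrambled cells, with 783 peaks in shWdr82 alone and 1432 in scrambled cells alone.

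Of the 4 LPS classes, the one outside H3K36me3 on total Pol II leaned most to shWdr82. There 1187 peaks were in the shWdr82 list alone and 367 in the scrambled list alone, so that 76.4% (74.2 to 78.5) were held by shWdr82. Untreated cells had 529 and 569, or 48.2% (45.2 to 51.2). Among those with a score of at least 100, 762 were in shWdr82 alone and 126 in scrambled cells alone after LPS, against 236 and 237 in untreated cells. At that score after LPS, the counts were 2695 and 1039 over all classes and 584 and 673 inside H3K36me3. Outside without total Pol II they were 1349 and 240, so the lean among strong peaks was not particular to those on total Pol II. With every shWdr82 LPS peak narrowed about its centre, until the list covered as much as the scrambled one, the counts outside on total Pol II were 1198 and 403. Reducing the shWdr82 LPS list to its 6650 strongest peaks, set against all 14420 scrambled peaks, gave 492 against 704, so this count depends on how the covered length is equalised.

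Strong outside peaks separated the vectors as well. Nearly every scrambled peak with a score of at least 1000 was overlapped in the shWdr82 list, whether inside or outside H3K36me3. Of the 214 such scrambled peaks outside after LPS, 96.3% (92.8 to 98.4) were overlapped, and of the 152 in untreated cells 99.3% (96.4 to 100.0) were. Of the 631 shWdr82 peaks of that strength outside after LPS, 72.4% (68.8 to 75.9) were overlapped by the scrambled list, and of 166 in untreated cells 86.7% (80.6 to 91.5) were. Inside H3K36me3 at the same scores, the overlapped share was 98.2% of shWdr82 and 99.1% of scrambled peaks after LPS, and 99.1% and 99.6% in untreated cells. Scores are set library by library, so a score of 1000 need not stand for the same enrichment in each list.

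**Figure D2:**
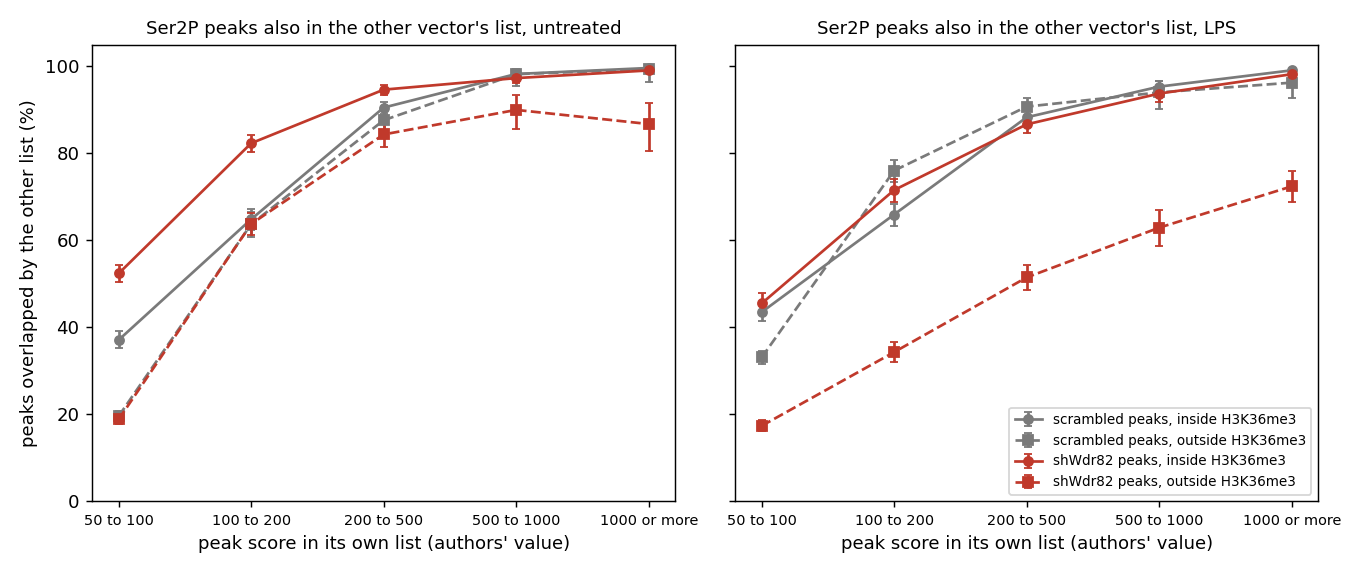
Share of Ser2P peaks that were overlapped by the other vector's list (y axis, %) by the peak's own score (x axis, 5 ranges), for untreated (left) and LPS (right) libraries; solid lines are peaks inside and dashed lines peaks outside H3K36me3, and bars are exact 95% intervals. After LPS the line for shWdr82 peaks outside H3K36me3 lies below the other 3, ending at 72.4% where the others end at 96.3% or above.

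The libraries of the other treatment, which had no part in choosing these peaks, gave a further look at them. Of the 529 untreated peaks in shWdr82 alone outside H3K36me3 on total Pol II, 49.7% had a Ser2P peak in the shWdr82 LPS list and 34.2% in the scrambled LPS list, a difference of 15.5 points (11.4 to 19.6). The 569 untreated peaks in scrambled cells alone went the other way, with 30.8% and 37.1%, a difference of -6.33 points (-10.1 to -2.59). Of the 1187 LPS peaks in shWdr82 alone, 15.8% had a Ser2P peak in the shWdr82 untreated list and 10.3% in the scrambled untreated list, a difference of 5.56 points (3.59 to 7.53). The 367 LPS peaks in scrambled cells alone again went the other way, with 26.2% and 38.4%, or -12.3 points (-16.8 to -7.75).

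Inside H3K36me3 the same look-up was uneven between vectors. LPS peaks in scrambled cells alone, inside on total Pol II, were found more often in the scrambled than in the shWdr82 untreated list, at 49.0% and 36.4%. Those in shWdr82 alone differed less, with 25.1% in the shWdr82 and 21.2% in the scrambled untreated list, a difference of 3.98 points (0.967 to 6.99). In 1 class the look-up went against the vector that held the peaks by more than its interval. Untreated peaks in scrambled cells alone, outside without total Pol II, were in the shWdr82 LPS list at 9.46% and in the scrambled LPS list at 7.78%. The shWdr82 LPS list covered the most DNA of the 4, and the part of that in these shares was not tested.

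Total Pol II was often not called in scrambled cells where shWdr82 alone had Ser2P on total Pol II after LPS. Of the 1187 peaks in shWdr82 alone outside H3K36me3 on total Pol II of their own library, 497 (41.9%) also had total Pol II in the scrambled LPS library. Of the 367 peaks in scrambled cells alone, 263 (71.7%) had total Pol II in the shWdr82 LPS library. Without LPS they were 57.3% of 529 peaks and 70.7% of 569 peaks. The total Pol II lists of the LPS libraries were close in length, with 22307 peaks for shWdr82 and 21891 for scrambled cells. Over all merged LPS total Pol II regions, 22.5% were held by shWdr82 alone and 19.6% by scrambled cells alone. The peaks above were chosen for total Pol II in their own library and no Ser2P in the other. A lower share in the other vector is thus partly built into that choice.

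After LPS, the shWdr82 peaks outside H3K36me3 on total Pol II lay farther from H3K36me3 than those of scrambled cells. Their median distance to the nearest H3K36me3 peak was 6328.5 bp in shWdr82 and 3034 bp in scrambled cells. In untreated cells it was 2031 bp and 1822.5 bp. At LPS, 44.5% of the shWdr82 and 42.4% of the scrambled peaks in this class overlapped H3K4me1, a mark of enhancers and promoter flanks, in the scrambled untreated library. For H3K27ac, found at active promoters and enhancers, the shares were 37.8% and 38.8%, and for the promoter mark H3K4me3 they were 20.5% and 28.0%, both in the empty vector untreated libraries. Outside peaks without total Pol II rarely met these marks, with 2.86% of shWdr82 and 2.77% of scrambled LPS peaks on H3K4me3.

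Individual regions were named by a rule that took the highest scores at least 5000 bp from any Ser2P peak of the other vector in that treatment. After LPS, the first 3 in shWdr82 alone outside H3K36me3 on total Pol II were tied at a score of 3100 and ordered by position. They were chr1:80776915-80783191, 6277 bp wide, chr1:90506226-90510718, 4493 bp wide, and chr1:153513965-153525716, 11752 bp wide. At all 3, the shWdr82 LPS library was the only one of 4 Ser2P lists and the only one of 4 total Pol II lists with a peak, and none had H3K36me3 or H3K4me3 in any list. The first overlapped H3K27ac and H3K4me1 in 4 of 4 lists each, and the third overlapped H3K4me1 in 3 lists and H3K27ac in 0. The nearest scrambled LPS Ser2P peak was 6848 bp, 5840 bp and 40227 bp away.

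The first 3 scrambled regions of that class are given beside them. They were taken from 208 regions, and the 3 of shWdr82 from 845, so their settings do not describe the classes. The first was chr11:117823298-117829448, 6151 bp wide with a score of 3100, where only the scrambled LPS library had Ser2P but all 4 total Pol II lists, all 4 H3K4me3 lists and 3 of 4 H3K36me3 lists had a peak. The second, chr13:13878886-13888740, had total Pol II in both LPS libraries. The third, chr5:121320293-121324975, lay 276 bp from H3K36me3 and had Ser2P in both untreated lists.

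Without total Pol II, the first-ranked LPS peak in shWdr82 alone was chr2:90421071-90444055, tied in score with chr16:49931117-49952670. It was 22985 bp wide, had a score of 3100 and lay 12420 bp from H3K36me3 and 133269 bp from the nearest scrambled LPS Ser2P peak. Total Pol II was called there in both untreated libraries and in neither LPS library, and H3K4me3, H3K27ac and H3K4me1 were each called in 4 of 4 lists. The scrambled counterpart, chr15:103304835-103311230, was 6396 bp wide with a score of 856 and had Ser2P in both untreated lists.

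In untreated cells the first 2 regions in shWdr82 alone outside H3K36me3 on total Pol II were neighbours on chromosome 14. They were chr14:26201619-26216685 and chr14:26262311-26278023, 15067 bp and 15713 bp wide, both with a score of 3100. The nearest scrambled untreated Ser2P peaks were 265801 bp and 204463 bp away, and total Pol II in untreated cells was in the shWdr82 list alone at both. After LPS, the shWdr82 list had Ser2P at both and the scrambled list at the first. A scrambled region that went the other way in both treatments was chr17:24277842-24280980, 3139 bp wide with a score of 1303. Ser2P there was in both scrambled lists and in neither shWdr82 list, although total Pol II and H3K4me3 were in 4 of 4 lists each.

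Inside H3K36me3, the first-ranked region of each vector and treatment is given, with ties at a score of 3100 ordered by position, and 3 of these 4 had Ser2P in both lists of the other treatment. The untreated region chr5:145026374-145037280, in shWdr82 alone with a score of 3100, had Ser2P in both LPS lists, and chr11:29438237-29450141, in scrambled untreated cells alone with a score of 1705, did too. After LPS, chr1:135508317-135516522 in shWdr82 alone had Ser2P in both untreated lists. The exception, chr4:63054368-63067845, in scrambled cells alone after LPS, was also in the scrambled list and not in the shWdr82 list of untreated cells.

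As called, Ser2P peaks present in both vectors were wider in shWdr82 after LPS, most of all outside H3K36me3. Widths were compared for peaks that overlapped exactly 1 peak of the other list, as log2 of the shWdr82 width over the scrambled width. Over 5243 LPS pairs the median was 0.13 (SD 0.036 over chromosomes), above 0 on 20 of 20 chromosomes, with 23.3% of pairs over 1.5-fold wider and 8.47% over 1.5-fold narrower. Over 6059 untreated pairs it was -0.12 (SD 0.029), above 0 on 0 of 20 chromosomes, with 6.85% wider and 19.7% narrower. Total Pol II peaks had medians of 0.04 in untreated cells, with 11% wider and 6.89% narrower, and -0.03 after LPS, with 11.4% wider and 12.5% narrower. H3K36me3 peaks had medians of -0.01 and -0.003. The shWdr82 LPS list covered 60.6 Mb and the scrambled LPS list 44.7 Mb. The Ser2P width ratios were not recomputed with peaks narrowed to equal covered length. For the same pairs, that narrowing would shorten each shWdr82 LPS peak by a larger factor than the LPS median ratio. It is also larger than the LPS median ratio outside H3K36me3 given below. Both medians would then lie below 0, so their sign depends on the covered length of the list. Keeping only the strongest peaks leaves the width of each peak unchanged.

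After LPS the median was 0.35 for the 1635 pairs outside H3K36me3 and 0.08 for the 3398 pairs inside. The outside median was higher by 0.27 (SD 0.081), on 20 of 20 chromosomes. Both classes stood at -0.11 in untreated cells, with a difference of 0.0015 (SD 0.10). Among pairs of like mean width, the LPS gap varied. Below 1000 bp the LPS median was 0.13 outside (191 pairs) and 0.18 inside (81 pairs). From 1000 to 2000 bp it was 0.39 outside and 0.04 inside, and from 2000 to 4000 bp 0.41 and 0.04. From 4000 to 8000 bp it was 0.29 outside and 0.08 inside, and from 8000 bp up 0.28 (69 pairs) and 0.13. The untreated median was higher outside than inside in each of these 5 ranges, at -0.22 against -0.38 below 1000 bp, -0.16 against -0.24, -0.09 against -0.15, 0.0033 against -0.08, and 0.04 (35 pairs) against -0.02 from 8000 bp up. Outside H3K36me3 after LPS, the median width of the paired peaks was 2565 bp in shWdr82 and 1778 bp in scrambled cells.

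Where both vectors agreed on total Pol II, the LPS median log2 ratio was 0.07 inside H3K36me3 with it (2264 pairs), 0.14 inside without total Pol II (522 pairs), 0.21 outside with it in both vectors (581 pairs) and 0.42 outside with it in neither (677 pairs). Over all pairs the median with total Pol II in both was lower than with it in neither by 0.21 on the log2 scale (-0.21, SD 0.11), on 20 of 20 chromosomes. It was -0.12 (SD 0.14), above 0 on 6 chromosomes, with scores of at least 100 in every list, and -0.17 (SD 0.15), above 0 on 3 chromosomes, with peaks joined over 1000 bp. In untreated cells that difference was 0.02 (SD 0.12). Pairs with total Pol II under 1 vector's peak alone are given as a description, since a wider peak meets total Pol II more easily. Outside H3K36me3, the median was 0.75 for 266 LPS pairs with it in shWdr82 alone and 0.05 for 111 pairs with it in scrambled cells alone. The untreated medians of the same classes were 0.09 for 132 pairs and -0.34 for 149 pairs.

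**Figure D3:**
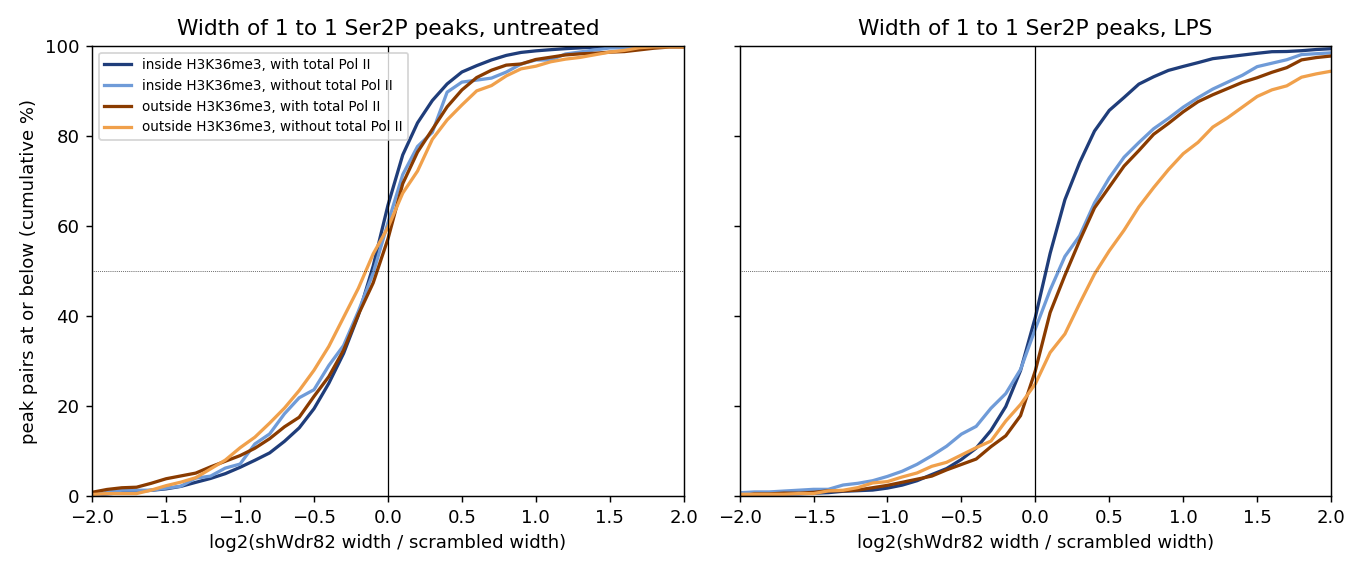
Cumulative share of Ser2P peak pairs (y axis, %) by log2 ratio of shWdr82 to scrambled width (x axis), in 4 classes by H3K36me3 and total Pol II, for untreated (left) and LPS (right) libraries; pairs beyond 2 on the log2 scale fall off the axis. The 4 untreated curves run close together left of 0, and the LPS curves spread to the right, with medians from 0.07 inside with total Pol II to 0.42 outside without it.

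At 2166 regions with a 1 to 1 pair in both treatments, the median log2 width ratio was -0.10 in untreated cells and 0.08 after LPS. Of these, 328 lay outside H3K36me3 in all 4 lists, with medians of -0.03 and 0.21. Across these 2166 regions, which share their libraries and are not independent samples, Pearson's r between the untreated and the LPS ratio was 0.144. The 302 regions over 1.5-fold wider in shWdr82 after LPS had an untreated median of -0.04, against -0.09 at the 1713 regions within 1.5-fold.

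Very wide Ser2P peaks outside H3K36me3 were commonest in the shWdr82 LPS list. Peaks at least 10000 bp wide outside H3K36me3 numbered 279 in the shWdr82 and 67 in the scrambled LPS list, with summed widths of 4.35 Mb and 0.985 Mb. In untreated cells there were 44 and 28. Inside H3K36me3 the numbers were 870 and 607 after LPS and 384 and 480 in untreated cells.

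Among pairs scoring at least 100 in both LPS lists, the 5 with the highest width ratio were named. The first was chr3:61225219-61236893 in shWdr82, 11675 bp, against 837 bp in scrambled cells, a log2 ratio of 3.80. The fourth and the fifth are given with their untreated values. At chr9:75261190-75286425 the shWdr82 LPS peak spanned 25236 bp against 3115 bp, and at chr3:84429156-84442541 it spanned 13386 bp against 1814 bp. In untreated cells these held shWdr82 peaks of 4173 bp and 8883 bp and no scrambled peak, and total Pol II was called in 4 of 4 lists at both. Of the 5 wider pairs, 3 had Ser2P in the shWdr82 untreated list and 0 in the scrambled one. The 5 narrower pairs all had Ser2P in the scrambled untreated list and 3 had it in the shWdr82 one. The narrowest by ratio was chr2:90942775-90945799, 3025 bp in shWdr82 against 22319 bp in scrambled cells, a log2 ratio of -2.88.

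Past the distal ends of H3K36me3 domains, more DNA was covered by Ser2P in shWdr82 cells after LPS. H3K36me3 peaks of the scrambled untreated library were joined over gaps up to 3000 bp into 15752 domains. The 5052 domains with H3K4me3 within 5000 bp of exactly 1 end were given a promoter end and a distal end. Their median length was 15972 bp. The distal end served in place of an annotated 3' end, and an end of H3K36me3 is not an end of a gene. Ser2P was concentrated there in all 4 libraries: it covered 34.0% of the first 2000 bp past the distal end in scrambled untreated cells, against 8.41% past the promoter end.

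From 2000 to 5000 bp past the distal end, Ser2P covered 20.1% of bases with shWdr82 and 15.5% with the scrambled hairpin after LPS, a difference of 4.58 points (SD 1.39), higher in shWdr82 on 20 of 20 chromosomes. From 5000 to 10000 bp the values were 10.2% and 6.72%. In the last 10000 bp inside the domain they were equal, at 14.0% in each library. Over the first 10000 bp past the end they were 17.1% and 13.7% after LPS, a difference of 3.37 points (SD 0.978), and 14.4% in each library in untreated cells, a difference of -0.0135 points (SD 0.761). Within the untreated flank, shWdr82 was lower up to 2000 bp, at 32.0% against 34.0%, and slightly higher from 2000 to 5000 bp, at 16.6% against 15.8%.

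The LPS difference was not particular to the distal flank. Coverage from 50000 to 100000 bp past the distal end was 6.26% in shWdr82 and 4.66% in scrambled cells, a ratio of 1.34, beside a ratio of 1.52 from 5000 to 10000 bp. Past the promoter end, the first 10000 bp were covered to 7.93% and 6.65%, a ratio of 1.19. With the shWdr82 LPS list reduced to the length that the scrambled list covered the distal difference was -0.154 points, and with its peaks narrowed about their centres it was -0.860 points. The sign of the LPS flank difference thus depends on the covered length of that list. Total Pol II in the same LPS flank covered 12.5% for shWdr82 and 11.8% for scrambled cells, and H3K36me3 covered 14.7% and 13.7%.

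**Figure D4:**
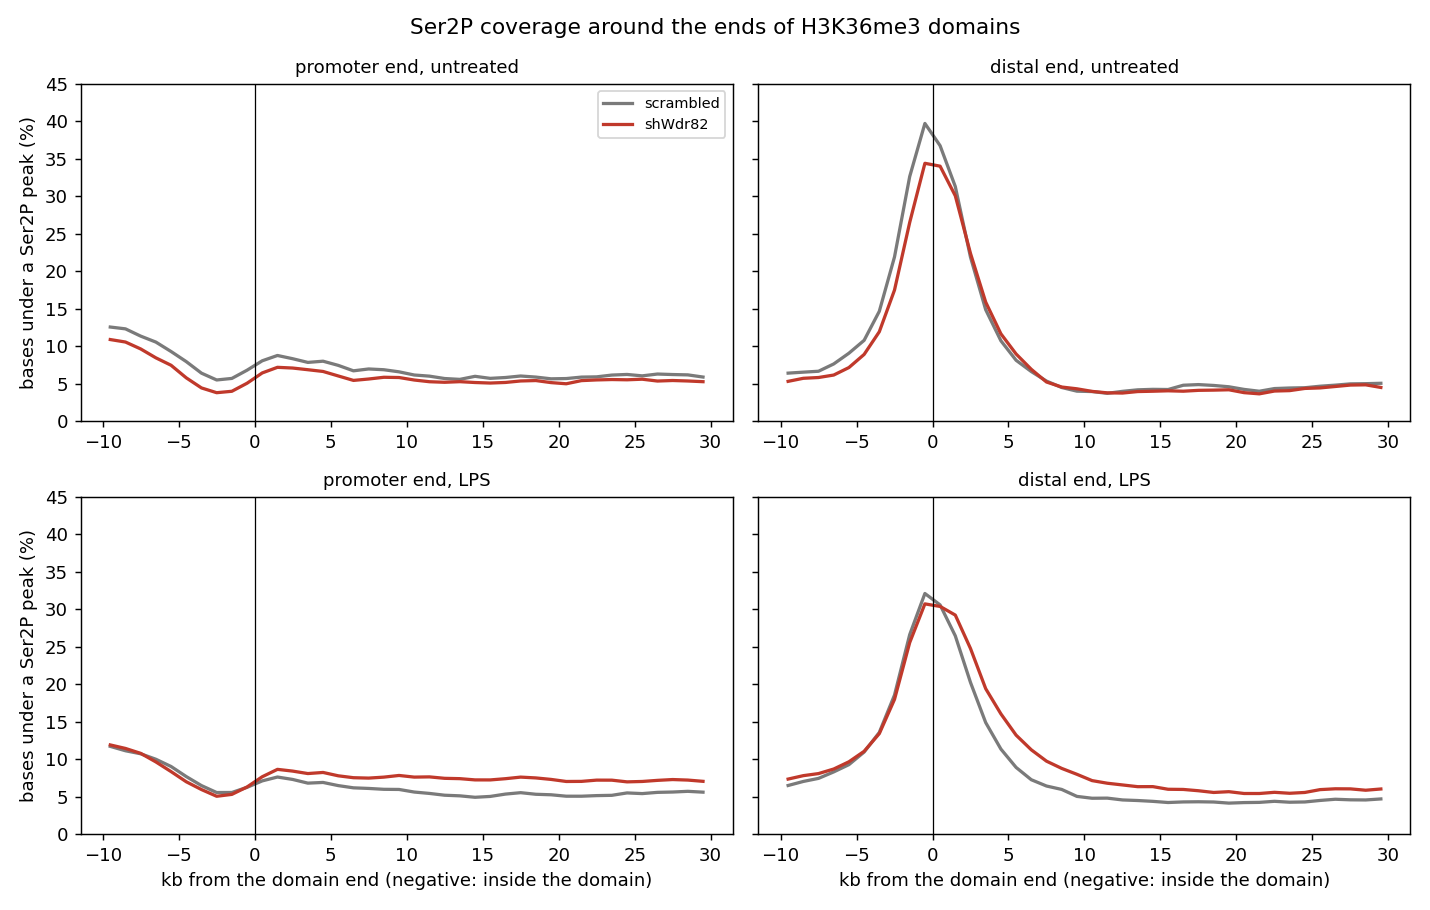
Share of bases under a Ser2P peak (y axis, %) in bins of 1 kb from 10 kb inside to 30 kb past the promoter end (left) and the distal end (right) of 5052 H3K36me3 domains (x axis), for shWdr82 and scrambled libraries, untreated (top) and LPS (bottom). All libraries peak at the distal end; after LPS the shWdr82 line lies above the scrambled line from the second bin past that end, at 20.1% against 15.5% from 2000 to 5000 bp.

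The borders of single peaks were compared next. Where a pair of 1 to 1 Ser2P peaks lay on the same domain, the shift of each border between the vectors was measured, with outward shifts in shWdr82 counted as positive. After LPS the median shift over 1691 pairs was -26 bp on the promoter side and 184 bp on the distal side. The median difference within a peak, distal minus promoter, was 316 bp (SD 154 over chromosomes) and above 0 on 20 of 20 chromosomes. The distal border lay over 500 bp farther out in 34.9% of pairs and over 500 bp farther in in 9.28%, while on the promoter side these shares were 20.1% and 21.1%.

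In untreated cells the peaks were narrower in shWdr82, mostly through loss on the promoter side. Over 2075 pairs the median shift was -186 bp on the promoter side and -6 bp on the distal side, with a median difference of 205 bp (SD 111), above 0 on 20 of 20 chromosomes. The promoter border lay over 500 bp farther in in 30.9% of pairs and farther out in 10.4%, and on the distal side the shares were 19.2% and 18.2%. Peaks that crossed the distal end in scrambled cells showed more of this asymmetry, at 303 bp in untreated cells (1143 pairs) and 467.5 bp after LPS (908 pairs). Peaks that did not cross it had differences of 100.5 bp and 116 bp, above 0 on 13 and 16 chromosomes. Their untreated median shifts were inward on both sides, at -108.5 bp on the promoter side and -58.5 bp on the distal side. Untreated peaks that crossed it had -245 bp and 21 bp. For total Pol II the difference was 21 bp in untreated cells and 27.5 bp after LPS, and 223 bp at LPS peaks that crossed the distal end. The Ser2P difference stayed above 0 in every alternative tried, from 179 to 330.5 bp in untreated cells and from 278 to 538 bp after LPS. Narrowing takes the same length off both borders of a peak, and dropping weaker peaks leaves the borders of the others in place. Equalising covered length could thus alter this difference only through the pairs that entered, and is no check on it.

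**Figure D5:**
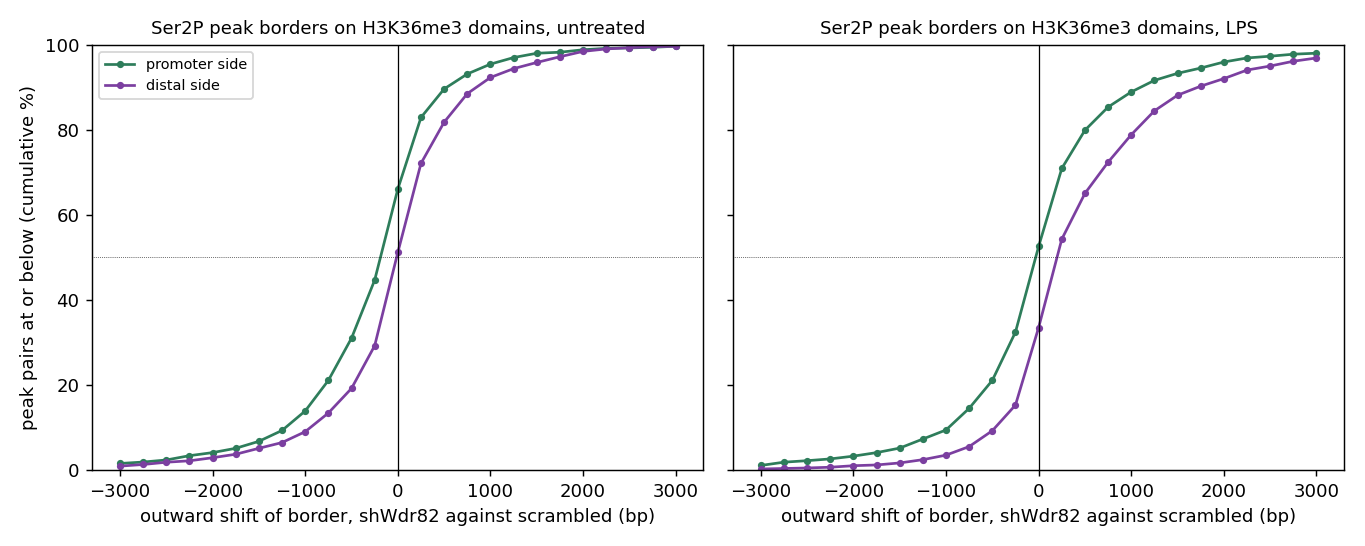
Cumulative share of Ser2P peak pairs (y axis, %) by the outward shift of the border in shWdr82 against scrambled cells (x axis, bp), for the promoter side and the distal side, in untreated (left, 2075 pairs) and LPS (right, 1691 pairs) libraries. The distal curve lies right of the promoter curve in both treatments, with medians of -6 and -186 bp in untreated cells and 184 and -26 bp after LPS.

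Single domains had longer or shorter Ser2P flanks in shWdr82. Among 3502 domains of at least 10000 bp, 687 had more covered bases within 20000 bp past the distal end in shWdr82 in both treatments and 340 had fewer in both. Another 249 had more in untreated cells and fewer after LPS, and 567 had fewer in untreated cells and more after LPS. With a minimum of 2000 bp in both treatments, 70 had more and 26 had fewer. The shWdr82 LPS list had an excess of flank coverage over all domains, and whether single domains recur between treatments beyond that was not tested.

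The domain with the largest gain common to both treatments was chr14:47922240-47945182, 22943 bp long. Of the 20000 bp past its distal end, Ser2P covered 19971 bp in shWdr82 and 3235 bp in scrambled untreated cells, and 20000 bp and 11780 bp after LPS. Total Pol II in that flank covered 3051 bp and 3030 bp in untreated cells and 13316 bp and 3430 bp after LPS, and H3K36me3 of the scrambled untreated library covered 0 bp. At chr7:87023303-87062677 the Ser2P values were 10525 bp and 4312 bp in untreated cells and 13941 bp and 2594 bp after LPS. The largest common loss was at chr2:152598859-152656171, with 4848 bp in shWdr82 and 13751 bp in scrambled untreated cells, and 9840 bp and 16619 bp after LPS.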

How the data were processed

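The values are peak lists, 1 per library, which the authors deposited with a start, an end and a score for each peak. The score was set by the authors' peak calling and is used only to rank or filter peaks, and the positions are other deposited values that peak calling set in each library. Bowtie 0.12.7, MACS 1.4 and mm9 are named in the submitters' processing notes. Neither depth nor input is given in the sources used here, and depth is unknown. A deeper or better enriched library can give more and wider peaks, which affects presence, widths and coverage alike.

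Overlaps, widths, flanks and border shifts were computed with Python 3.11.15, numpy 2.4.6 and scipy 1.17.1, and tested on simulated data. Presence means an overlap of at least 1 bp. Shares carry exact Clopper-Pearson 95% intervals and differences of shares Wald intervals. H3K36me3 classes were drawn on the scrambled untreated library, so a scrambled list could meet them more easily, and the shWdr82 untreated list was used as an alternative. A pair inside or outside needed both peaks in that class. No peak lay off the 20 chromosomes.

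Named regions were the highest scores in 1 list alone, at least 5000 bp from the other list, in each of 12 classes by treatment, vector, H3K36me3 and total Pol II. Beside them stood the 5 most extreme LPS width ratios and the 5 domains with the largest flank gain or loss common to both treatments. The comparisons, classes and lists were chosen with earlier results of these data known, and the border shifts, the count outside H3K36me3 on total Pol II as a value to recompute, the narrowed lists and the pairs of 2000 to 4000 bp were chosen after seeing the data. Alternatives changed the score minimum, the number of peaks, the gaps joined, the covered length, the overlap, and the H3K36me3, total Pol II and domain definitions.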

Additional observations from a re-analysis of the deposited data

Results flagged for a closer look

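The vectors differed in Ser2P width, as called, in opposite directions in the 2 treatments. The median log2 ratio of shWdr82 to scrambled width was -0.12 in untreated cells, below 0 on 20 of 20 chromosomes, and 0.13 after LPS, above 0 on 20 of 20 chromosomes. With 1 library in each group, the difference between treatments was not tested. The ratios were not recomputed with peaks narrowed to equal covered length. The shWdr82 and scrambled lists covered 43.0 and 46.0 Mb in untreated cells, and 60.6 and 44.7 Mb after LPS. For the same pairs, such narrowing would bring the LPS median below 0. The opposite directions thus depend on the covered length of the lists.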

How the results depend on the processing

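Of 146 values recomputed under an alternative, 129 kept the direction of the reported value. Of the 146, 43 moved by more than their interval or SD, and 3 reversed. A share of peaks overlapped or held by 1 vector cannot be negative, so it kept its direction whatever its value. A reversal was counted only where the reported value differed from no difference by more than its interval or SD. The reversals were all in LPS: the outside share at -7.93 points and the distal flank at -0.154 points with the shWdr82 list reduced to the covered length of the other, and the distal flank at -0.860 points with its peaks narrowed. No paired analysis was possible because each group had 1 library. With a score of at least 100 in every list, the scrambled peaks overlapped were 75.0% in untreated cells and 79.0% after LPS. The outside minus inside difference of peaks in 1 list was then 17.9 and 34.5 points, and for LPS the shWdr82 share of 1-list peaks outside on total Pol II was 80.0%, the outside share difference 14.3 points and that of overlap with total Pol II -7.04 points. With equal numbers of Ser2P peaks, the untreated differences were 3.96 points outside and -4.65 points with total Pol II. With peaks joined over 1000 bp, overlap was 56.4% and 60.7%, and the LPS differences were 13.1 points for 1-list peaks, 4.35 points outside and 2.09 points with total Pol II, with border differences of 330.5 bp untreated and 538 bp after LPS. Reducing the longer-covering list gave, in untreated cells, 68.2% overlapped, 18.9 points for 1-list peaks, 55.9% held by shWdr82 outside on total Pol II, 13.3 points outside and -17.0 points with total Pol II. After LPS it gave 46.3%, 12.2 points, 41.1% and 23.6 points with total Pol II, and log2 width differences of 0.35 outside minus inside and -0.40 with minus without total Pol II. That 41.1% lies below an even split where the reported value lies above it, and 1-list peaks outside on total Pol II in untreated cells lay on either side of an even split. An overlap of 50% gave 54.7% and 60.6%. H3K36me3 of any list gave 11.2 points for untreated 1-list peaks. H3K36me3 of the shWdr82 untreated list gave 9.30 points, 42.3% and 4.44 points outside in untreated cells, and 15.2 points and 74.0% after LPS. Total Pol II of both vectors gave -4.47 points untreated, and 74.1% and -1.26 points after LPS. Equal numbers of total Pol II peaks gave -5.02 points untreated. Narrowed peaks gave an untreated distal flank of 0.974 points, and 60.8% overlap and 9.09 points outside after LPS. Pairs of 2000 to 4000 bp gave an LPS width difference of 0.37. The cause of these shifts was not tested. Read depth, which sets what peaks can be called, is unknown.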

Other observations

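Ser2P peaks far from any H3K36me3 made up a large part of the weakest class. Among untreated peaks outside H3K36me3 without total Pol II, 43.4% of shWdr82 and 43.5% of scrambled peaks lay at least 100000 bp from an H3K36me3 peak. After LPS the shares were 20.8% of 5287 shWdr82 peaks and 32.3% of 4876 scrambled peaks. The median distances in this class were 50769.5 bp and 51903 bp in untreated cells, and 15425 bp and 16133.5 bp after LPS.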
